A study of Mus musculus with 12 samples.

Results

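Cultures of mouse bone marrow were compared on 6 arrays, 3 with added miR-155 and 3 from miR-155 knockout cells, out of 12 arrays in the study. By label these groups stand farthest apart in miR-155. The arrays were chosen by their titles alone, and every probe set that carries 1 gene symbol was examined, which gave 14860 genes. All cultures were labelled as progenitor cells from the bone marrow of female C57B/6 mice aged 12 weeks. The mice had received 5-FU, a cytotoxic drug that kills dividing marrow cells and so enriches for progenitors. All cells carried an MSCV retroviral construct for Hoxa9, a homeobox gene that keeps myeloid progenitors growing, and were grown in DMEM with fetal calf serum and the cytokines IL3, SCF and IL6. The first group overexpressed Hoxa9 and miR-155 in wild-type cells. The second overexpressed Hoxa9 in knockout cells, and its titles add MIG, a vector for which the labels name no further insert. Genotype and added construct thus differ together between these groups and cannot be told apart in their difference. A set of 3 arrays of Hoxa9 with MIG in wild-type cells shares the genotype of the first group and the vector of the second, and its values are given beside the others. The design text speaks of 3 independent experiments for each condition, but no label ties an array to a mouse, so the p-values measure the spread between these cultures.

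MicroRNAs are short RNAs that guide Argonaute proteins to messenger RNAs that pair with the seed, the stretch near the 5′ end of the microRNA, and so lower the messenger's stability and translation. miR-155 is cut from a precursor encoded in its host gene, is induced in activated lymphoid and myeloid cells, and was studied early for its part in lymphoma and in myeloid proliferation. Its known targets include brakes on inflammatory signalling and regulators of chromatin and of myeloid fate. The mature strands, from RefSeq on mouse build GRCm38.p6, are shown because they define what was added or deleted, and the capitals mark the seed, bases 2 to 8.
mmu-miR-155-5p (chr16:84714143-84714165, plus strand): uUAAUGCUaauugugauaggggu
mmu-miR-155-3p (chr16:84714182-84714202, plus strand): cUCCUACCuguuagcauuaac
The 2 strands differ in seed. Neither has a probe set of its own here, since 0 probe sets are named for miR-155 or its host gene, so both the addition and the knockout rest on the labels.

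Values are the deposited log2 expression levels, on which a difference of 1 is a doubling. The 6 arrays had medians of 6.385 to 6.489 and highest values of 13.61 to 13.68, near which a probe set can saturate. Correlations over probe sets were 0.984 to 0.988 within the miR-155 group, 0.989 to 0.991 within the knockout and 0.981 to 0.987 between them. Hoxa9 read 13.22, 13.25 and 13.20 with miR-155 and 13.19, 13.22 and 13.21 in the knockout, a difference of 0.02 ± 0.06 (SE). These readings lie near the highest values, so equal levels of Hoxa9 cannot be read from them. The Y-linked genes Eif2s3y and Kdm5d stayed at or under 3.48 on these arrays, at the low end of their range. The number of arrays limits the precision.

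Compared with the knockout, cultures with added miR-155 had lower levels of genes of mast cells, basophils, eosinophils and macrophages, and higher levels of a smaller and more mixed set headed by 2 casein genes. Not all members of these lists moved. Limma called 651 of 16015 probe sets at an adjusted p under 0.05, which is 4.06%. Of these, 174 (1.09%) were higher and 477 (2.98%) lower with miR-155, so that 73.3% of the calls were falls. That share was 62.1% after another quantile normalization and 62.4% after arrays were set to a common median. Counted as genes, 161 rose and 453 fell, of which 14 rises and 86 falls were at least 2-fold. The median difference over all genes was 0.00. In each called gene the 3 miR-155 arrays lay entirely on 1 side of the 3 knockout arrays, which 24.8% of all genes also did. Leaving out any 1 array lowered the count of calls: without miR-155 array 1 it was 325, without array 2 457 and without array 3 375, and without knockout arrays 1, 2 and 3 it was 383, 345 and 383. The fit covers all 12 arrays, including 3 outside the miR-155, knockout and wild-type MIG groups, 2 titled MIY and 1 titled Meis1. An array alone in its group adds nothing to the spread estimate, so of these 3 only the difference between the MIY arrays enters it. A fit on the 9 arrays of the miR-155, knockout and wild-type MIG groups called 1195 probe sets. With them it called 48 of the 286 distinct listed genes that did not pass over 12 arrays. Those among the 48 that are named below are pointed out.

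**Figure D1:**
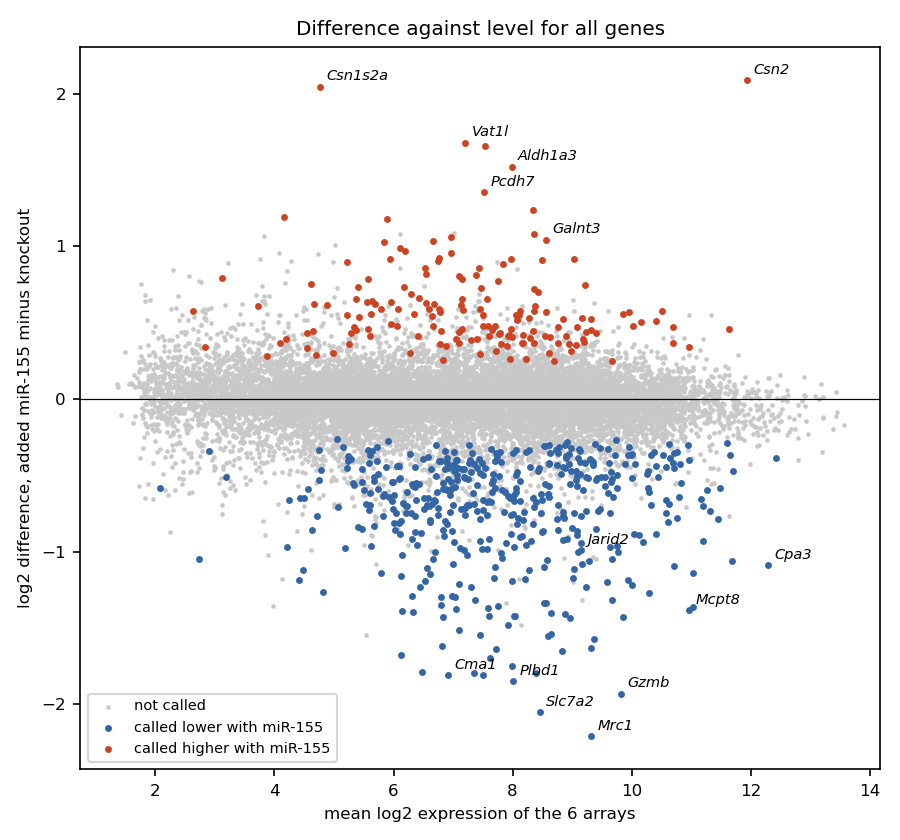
Each point is 1 of 14860 genes, with its mean log2 expression over the 6 arrays on the horizontal axis and the log2 difference, added miR-155 minus knockout, on the vertical axis. Blue points are the 453 genes called lower and red points the 161 called higher. Falls reached -2.21 (Mrc1) and rises 2.09 (Csn2).

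The wild-type MIG arrays were set beside both groups. The 453 falling genes had a median difference of -0.64 against the knockout and of -0.55 against wild-type MIG, while the knockout differed from wild-type MIG by a median of 0.05 in the same genes. In the 161 rising genes the medians were 0.53 against the knockout and 0.37 against wild-type MIG, and the knockout lay at -0.16 from wild-type MIG. These comparisons share arrays and are given side by side only. By the same limma test, 527 of 16015 probe sets (3.29%) differed between miR-155 and wild-type MIG, 98 (0.612%) higher and 429 (2.68%) lower with miR-155. Between the knockout and wild-type MIG 5 (0.0312%) differed, 3 (0.0187%) higher and 2 (0.0125%) lower in the knockout.

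Targets of miR-155 were considered first, as a list of 39 published direct targets of which 31 had a probe set. Of these, 10 fell, 0 rose and 21 did not pass, and 27 of 31 values were negative, with a median of -0.40 beside 0.00 over all genes. Jarid2, which helps to bring the Polycomb repressive complex PRC2 to chromatin, read 8.62, 8.66 and 8.69 with miR-155, and 9.64, 9.72 and 9.58 in the knockout. The arrays of each group lay close together and far from those of the other. The change of -0.99 ± 0.06 (SE, limma adjusted p = 5.77e-05) is a 1.99-fold fall. Wild-type MIG averaged 9.42 ± 0.04 (SD, n = 3), between both. Bach1, a repressor of genes for haem and oxidant handling, read 8.29, 8.29 and 8.22 against 8.83, 8.81 and 8.82 and changed by -0.55 ± 0.07 (limma adjusted p = 0.00268). Inpp5d, the lipid phosphatase SHIP1 that restrains PI3-kinase signalling, read 9.81, 9.90 and 9.79 against 10.21, 10.27 and 10.30 and changed by -0.43 ± 0.06 (limma adjusted p = 0.00449). For both, wild-type MIG (8.80 and 10.22) lay with the knockout, which differed from it by 0.02 and 0.04.

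The other targets that fell have varied roles. Il13ra1, a chain of the receptor for IL-13, changed by -0.90 ± 0.14, the tetraspanin Tspan14 by -0.77 ± 0.09, the zinc finger repressor Zfp652 by -0.66 ± 0.10 and Tab2, an adaptor of the TAK1 kinase, by -0.51 ± 0.08. The macrophage growth factor receptor Csf1r (-1.0 ± 0.20, limma adjusted p = 0.0222), the AP-1 component Fos (-0.95 ± 0.22, 0.0407) and the oxygen-regulated transcription factor subunit Hif1a (-0.30 ± 0.07, 0.0415) also passed. Csf1r lost its call without miR-155 array 1 or 3 or knockout array 2 or 3 (adjusted p up to 0.0905). Fos lost it without any miR-155 array and without knockout array 2 or 3 (up to 0.142), and Hif1a without any 1 of the 6 arrays (up to 0.149) and under both rescalings named above. Among the 21 that did not pass were Spi1, the master myeloid factor PU.1, at -0.46, Cebpb at -0.42 and the signalling inhibitor Socs1 at -0.22. In the fit on 9 arrays Spi1 and Cebpb passed (limma adjusted p = 0.0181 and 0.0429). So did Smad5, Peli1, Trp53inp1, Ifngr1, Rheb and Wee1 (0.0033 to 0.0369), with changes of -0.35 to -0.49. Foxo3 at 0.11 and Smad1 at 0.28 were on the other side of 0. The list holds targets named in several cell types, and sites for the seed in 3′ UTRs were not analysed here. Of the other PRC2 genes, 0 of 10 passed in limma (1 at an unadjusted p under 0.05), and the catalytic subunits Ezh2 and Ezh1 differed by -0.06 and 0.19.

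**Figure D2:**
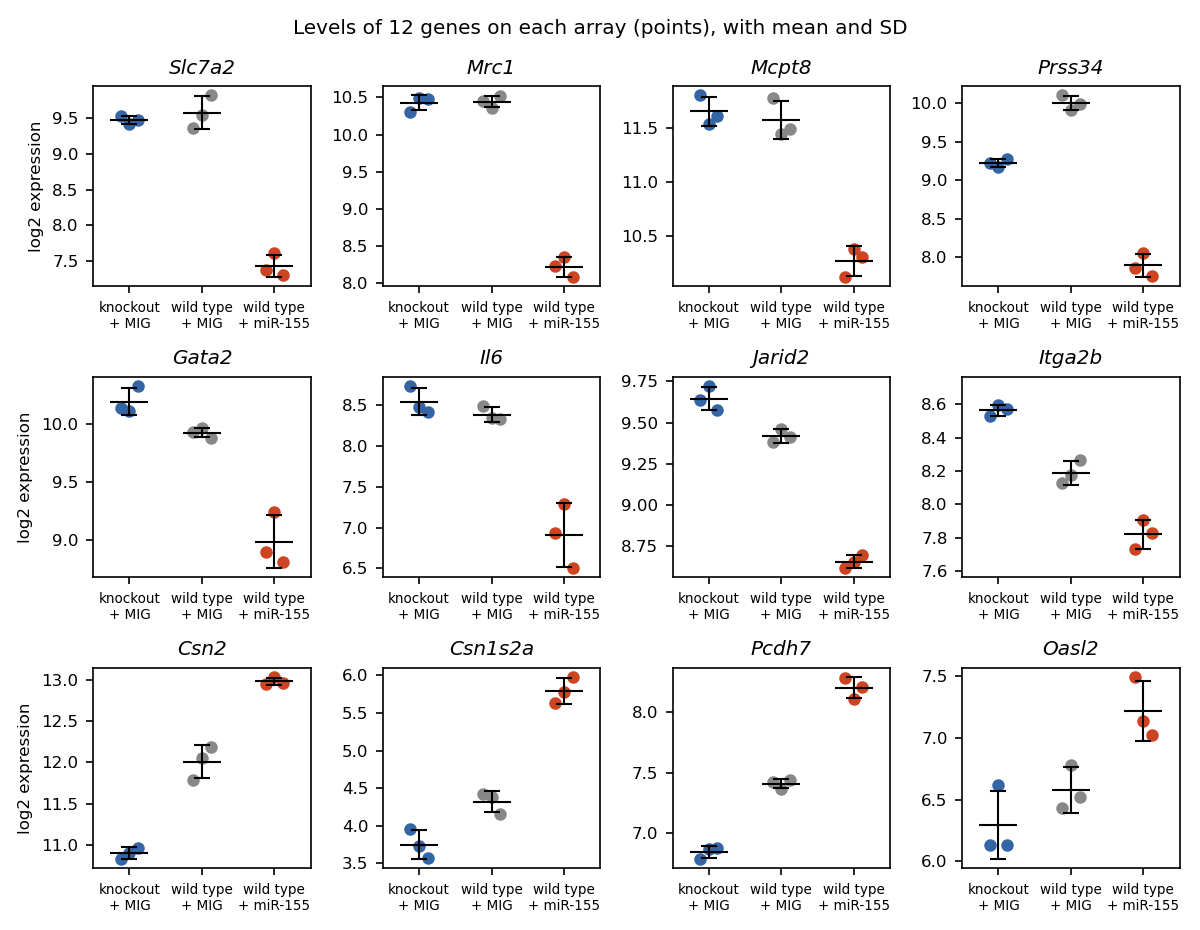
Log2 expression of 12 genes on each array, 1 panel a gene, with its own vertical axis. Points are the 3 arrays of each group (blue knockout with MIG, grey wild type with MIG, red wild type with miR-155), the long bar is the mean and the error bars 1 SD. In all 12 genes, as in every called gene and in 24.8% of all genes, the miR-155 arrays lie apart from the knockout arrays. They lie below in 8 of the 12 and above in 4 (Csn2, Csn1s2a, Pcdh7 and Oasl2).

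Proteases of mast cells and basophils were lower by more than any other list by its median. Of 11 listed, 8 had a probe set, 5 fell, 0 rose, and the median was -0.89. Mcpt8, a protease that marks mouse basophils, read 10.12, 10.38 and 10.31 with miR-155 against 11.81, 11.55 and 11.62 in the knockout, a 2.61-fold fall (-1.38 ± 0.11, limma adjusted p = 0.000282). Prss34, another basophil and mast cell protease, read 7.86, 8.05 and 7.75 against 9.23, 9.17 and 9.28 (-1.34 ± 0.09, limma adjusted p = 5.77e-05). As with every called gene, the arrays of neither overlapped between the groups. Unlike Mcpt8, Prss34 was also lower in the knockout than with wild-type MIG, which averaged 10.01 ± 0.10 (-0.78 ± 0.09, limma adjusted p = 0.0318). The mast cell chymase Cma1 read 6.04, 5.84 and 6.13 against 7.50, 7.93 and 8.0, a 3.50-fold fall. The granule carboxypeptidase Cpa3 read 11.65, 11.86 and 11.72 against 12.87, 12.83 and 12.80, and the tryptase Tpsg1 fell by 0.69 ± 0.12, a call that was lost without miR-155 array 3 (limma adjusted p = 0.054). The tryptase Tpsb2 (-0.27) and the mucosal proteases Mcpt2 (-0.13) and Mcpt1 (0.19) did not pass.

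The machinery by which mast cells and basophils sense IgE and make amines fell too, with 7 of 13 measured genes lower, 0 higher and a median of -0.64. Of the IgE receptor, the beta chain Ms4a2 read 6.87, 6.99 and 6.82 against 8.32, 8.53 and 8.10 (-1.42 ± 0.20, limma adjusted p = 0.00344). The alpha chain Fcer1a changed by -1.33 ± 0.28, a call lost without any 1 of the 6 arrays (limma adjusted p up to 0.112), and the gamma chain Fcer1g, which many Fc receptors share, differed by -0.23 and did not pass. Tph1, the enzyme that starts serotonin synthesis, read 7.27, 7.68 and 7.55 against 9.10, 9.36 and 9.43, a 3.47-fold fall. Hdc, which makes histamine, fell 2.27-fold and Slc18a2, which loads amines into granules, 2.26-fold. Gata2, a transcription factor required for mast cells and basophils, read 8.90, 9.25 and 8.82 against 10.13, 10.11 and 10.32 (-1.20 ± 0.19, limma adjusted p = 0.00584). The leukotriene enzyme Alox5 changed by -0.64 ± 0.15. Its call (limma adjusted p = 0.0476) was lost without any 1 of the 6 arrays and under both rescalings named above. The stem cell factor receptor Kit (0.21), the prostaglandin synthase Hpgds (0.27) and the factor Mitf (-0.09), all of which mast cells also use, did not pass. In such mixed cultures, fewer cells of a type and less RNA per cell cannot be told apart.

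Gata2 binds GATA motifs, so the 300 bases around the start of these genes (250 before and 50 after, from RefSeq on GRCm38.p6) were read for AGATAA or TGATAA on either strand. The windows of 3 falling genes are shown with their matches in capitals (TTATCT is AGATAA read on the other strand).
Prss34 (chr17:25298144-25298443, plus strand): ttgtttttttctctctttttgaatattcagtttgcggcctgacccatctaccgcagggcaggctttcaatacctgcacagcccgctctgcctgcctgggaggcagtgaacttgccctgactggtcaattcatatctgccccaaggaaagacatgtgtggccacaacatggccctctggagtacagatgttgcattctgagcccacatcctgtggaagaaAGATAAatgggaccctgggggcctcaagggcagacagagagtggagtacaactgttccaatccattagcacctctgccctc
Cpa3 (chr3:20242132-20242431, minus strand): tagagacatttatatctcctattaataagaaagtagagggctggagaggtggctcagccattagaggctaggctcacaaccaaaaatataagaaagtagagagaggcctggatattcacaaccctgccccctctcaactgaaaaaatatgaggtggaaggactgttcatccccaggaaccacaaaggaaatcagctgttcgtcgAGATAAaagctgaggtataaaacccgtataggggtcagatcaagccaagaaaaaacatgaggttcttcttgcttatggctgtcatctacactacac
Ms4a2 (chr19:11623670-11623969, minus strand): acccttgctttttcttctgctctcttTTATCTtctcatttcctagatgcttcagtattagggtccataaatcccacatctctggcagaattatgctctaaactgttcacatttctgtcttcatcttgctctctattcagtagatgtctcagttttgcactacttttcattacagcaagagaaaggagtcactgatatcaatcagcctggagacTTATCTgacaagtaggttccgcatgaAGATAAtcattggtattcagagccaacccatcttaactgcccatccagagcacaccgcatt
The match begins 31 bases before the start in Prss34, 46 before in Cpa3, and 224, 37 and 11 before in Ms4a2. Of the 12 falling genes of both lists, 6 held a match, the others being Fcer1a, Slc18a2 and Tpsg1. The motif was in 18.6% of all 32851 windows. Counted by gene, it was held by 16.3% of tested genes with a window and by 14.8% of all such genes that fell. A match describes these letters and is not a binding site.

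Eosinophil genes went lower in part, with 3 of 8 measured members called, 0 higher and a median of -0.49. The lectin Siglecf read 7.76, 7.82 and 7.58 against 8.76, 8.85 and 8.90 (-1.12 ± 0.08, limma adjusted p = 0.000176). The granule major basic protein Prg2 read 8.39, 8.78 and 8.57 against 10.17, 9.89 and 10.39, and the peroxidase Epx 7.92, 8.13 and 7.89 against 8.96, 8.95 and 9.33. The groups were apart in all 3 genes, as in every called gene. Prg2 changed by -1.57 ± 0.30 and lost its call without miR-155 array 1 or 3 or knockout array 1 or 3 (limma adjusted p up to 0.0766), and Epx changed by -1.10 ± 0.25 and lost it without any 1 of the 6 (up to 0.134). Wild-type MIG had the highest means of both, 10.80 and 10.11. Not every member lay lower. Ear6, an eosinophil ribonuclease, read 6.59, 6.54 and 6.47 against 6.07, 5.99 and 4.97, a difference of 0.86 ± 0.53 on the opposite side that did not pass (limma adjusted p = 0.506, and 0.0716 in the fit on 9 arrays), with knockout array 3 the lowest. The IL-5 receptor chain Il5ra (0.10) and the eotaxin receptor Ccr3 (0.06) did not pass either.

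Macrophage genes formed the largest block by number of calls, with 11 of 24 measured members lower and 1 higher, and a median of -0.57. Mrc1, the mannose receptor, had the largest fall of all called genes. It read 8.23, 8.34 and 8.08 with miR-155 against 10.31, 10.49 and 10.48 in the knockout, a 4.62-fold fall (-2.21 ± 0.38, limma adjusted p = 0.0102). Wild-type MIG, at 10.44, lay with the knockout. Mertk, a receptor for engulfing dead cells, read 6.10, 6.35 and 5.90 against 7.31, 7.66 and 7.65 (-1.43 ± 0.15, limma adjusted p = 0.000927). The lipid carrier Apoe fell 2.0-fold, fibronectin Fn1 1.90-fold, the cathepsin Ctss 1.72-fold and the chemokine receptor Ccr2 1.62-fold, while the endosomal marker Cd68 changed by -0.60 ± 0.10. Calls of Csf1r (given above), Gpnmb, Lgals3 and Adgre1, a surface receptor used as a macrophage marker, were less firm. Gpnmb (-0.65) and Adgre1 (-0.27) lost theirs without any 1 of the 6 arrays (limma adjusted p up to 0.155), Adgre1 also under both rescalings, and Lgals3 (-0.39) without miR-155 array 1 or 3 or knockout array 2 (up to 0.072). Cx3cr1, the fractalkine receptor, went the other way, by 0.48 ± 0.10, a call lost without any 1 array but knockout array 2 (up to 0.102). The scavenger receptor Msr1 read 8.52, 8.47 and 8.54 against 9.80, 10.13 and 9.55, well apart, yet its -1.32 ± 0.44 did not pass over 12 arrays (limma adjusted p = 0.158), while it did in the fit on 9 arrays (0.000458) and on 6 (0.00335). The complement genes C1qa (-1.08), C1qb (-0.65) and C1qc (-0.54) did not pass, but C1qa and C1qb did in the fit on 9 arrays (0.0394 and 0.0407).

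C-type lectin receptors, which bind sugars on microbes and dead cells, had 7 of 12 members lower and 0 higher, with a median of -0.52. Clec4a3 read 5.57, 5.62 and 5.57 against 7.24, 7.61 and 7.27, a 3.45-fold fall. Clec4a1 read 6.65, 7.29 and 6.39 against 8.24, 8.70 and 8.49, with miR-155 array 2 the highest of its group and still below the knockout. Clec7a, the beta-glucan receptor dectin-1, fell 2.07-fold and Clec4n, which is dectin-2, 2.09-fold. Clec4d (-0.59) lost its call without miR-155 array 1 (limma adjusted p = 0.0558). Clec12a (-0.39) lost it without any 1 array (up to 0.143) and under the other quantile normalization. Clec4a1 and Clec4a3 are neighbours on chromosome 6, where C3ar1 and Necap1 next to them among measured genes also fell.

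Arginine handling, an activity of alternatively activated macrophages, was represented by 6 measured genes, of which 2 fell strongly. The cationic amino acid transporter Slc7a2 read 7.37, 7.60 and 7.30 with miR-155 against 9.54, 9.42 and 9.48 in the knockout, a 4.15-fold fall with a small error (-2.05 ± 0.12, limma adjusted p = 3.39e-05). Arg1, the arginase that breaks arginine down, read 10.25, 10.33 and 10.46 against 11.67, 11.78 and 11.67, a 2.57-fold fall. The sister transporter Slc7a1 (0.02) and the nitric oxide synthase Nos2 (0.19) did not pass, nor did Arg2 (-0.73), which passed in the fit on 9 arrays (limma adjusted p = 0.00246). Lysosomal genes were split. Plbd1, a phospholipase-like protein, fell 3.59-fold, the proton pump subunit Atp6v0d2 3.47-fold, the bone-degrading cathepsin Ctsk 2.44-fold and Ctsl 1.85-fold, whereas the other 16 of 20 did not pass and the list's median was -0.11. The general lysosomal genes Lamp1 (-0.07), Ctsd (-0.14) and the regulator Tfeb (-0.03) were among those 16. So was Ctsh, which was lower with miR-155 and passed in the fit on 9 arrays (limma adjusted p = 0.00256).

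Adhesion and matrix genes were split, with 7 of 21 lower, 2 higher and a median of -0.19. Mmp13, a collagenase, read 8.48, 8.57 and 8.45 against 10.11, 10.24 and 10.05 (-1.63 ± 0.16, limma adjusted p = 0.000517), and the macrophage elastase Mmp12 read 11.17, 11.18 and 11.11 against 12.24, 12.33 and 12.05. The inhibitor Timp2 read 6.11, 6.13 and 6.12 against 7.49, 7.53 and 7.39, a 2.55-fold fall. Timp1 fell 1.95-fold and Mmp14 1.63-fold. The other falls were those of Fn1 and the integrin Itgb3, and the rises those of Eng and Pcdh7, described below. The gelatinase Mmp9, held in the late neutrophil list, had -0.44 and did not pass. Itgb3, at -0.31, lost its call without any 1 array (limma adjusted p up to 0.16) and under each of the 3 rescalings tried. Most leukocyte integrins did not pass, such as Itgb2 (0.08), Itgal (0.18) and Itgam (-0.19).

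Among the 25 largest falls were enzymes and surface proteins outside these lists. Pla2g7, which degrades platelet-activating factor, read 6.65, 6.78 and 6.36 against 8.30, 8.75 and 8.16, a 3.50-fold fall. The aminopeptidase Anpep (CD13) fell 3.14-fold, the growth factor Nrg1 2.94-fold, the junction protein Jup 2.92-fold, Smpdl3a, a sphingomyelinase-like phosphodiesterase, 2.91-fold, and Naaa, which hydrolyses lipid amides, 2.69-fold. Nrg1 had the smallest error of these (-1.56 ± 0.10, limma adjusted p = 6.64e-05), with readings of 7.81, 7.91 and 7.70 against 9.24, 9.56 and 9.29. The protease Asprv1 read 5.76, 4.58 and 5.52 against 6.75, 7.04 and 7.11, with miR-155 array 2 the lowest, and its call was lost without knockout array 2 or 3 (limma adjusted p up to 0.0543).

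Granulocyte genes passed unevenly. Among late neutrophil genes 4 of 18 fell, 0 rose and the median was -0.46, with 17 of 18 values negative. Lactoferrin, Ltf, read 8.25, 8.28 and 8.20 against 9.57, 9.53 and 9.93, a 2.70-fold fall whose call was lost without any 1 miR-155 array or knockout array 3 (limma adjusted p up to 0.072). Lrg1 (-0.87) lost its call without any 1 array but knockout array 1 (up to 0.124), and the collagenase Mmp8 (-0.47) without any 1 of the 6 (up to 0.137) and under the other quantile normalization. The abundant S100a8 (-0.10) and S100a9 (-0.25) did not pass. Camp (-0.64), Padi4 (-0.61), Cd177 (-0.52), Cxcr2 (-0.49), Chil3 (-0.48), Retnlg (-0.42) and Ngp (-0.40) did not pass over 12 arrays. They did in the fit on 9 arrays (limma adjusted p = 0.00134 to 0.0217). Among primary granule genes 3 of 10 fell and the median was -0.27. Nkg7, a granule membrane protein, read 9.74, 9.90 and 9.30 against 10.95, 11.04 and 10.76 (-1.27 ± 0.17, limma adjusted p = 0.00245). The regulators Cebpe (-0.66) and Gfi1 (-0.43) lost their calls without any 1 array (up to 0.128). Mpo (-0.35), Elane (-0.17), Prtn3 (-0.13) and Ctsg (-0.10), the main enzymes of these granules, did not pass, though Mpo did in the fit on 9 arrays (0.0148). Mpo, Elane and Prtn3 read close to 13 or above on all 6 arrays, near the arrays' highest values where a probe set can saturate, so their differences are not a measure of how little they changed.

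In antigen presentation, the invariant chain Cd74 read 10.32, 10.40 and 9.75 against 11.15, 11.30 and 11.29, a 2.13-fold fall (-1.09 ± 0.16, limma adjusted p = 0.0044). H2-Aa, a class II chain, changed by -1.31 ± 0.32, a call lost without any 1 array (limma adjusted p up to 0.159) and under the other quantile normalization. The other 9 of 11 measured genes did not pass, among them H2-Ab1 (-0.46) and the dendritic cell factors Zbtb46 (-0.09) and Irf8 (0.32).

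**Figure D3:**
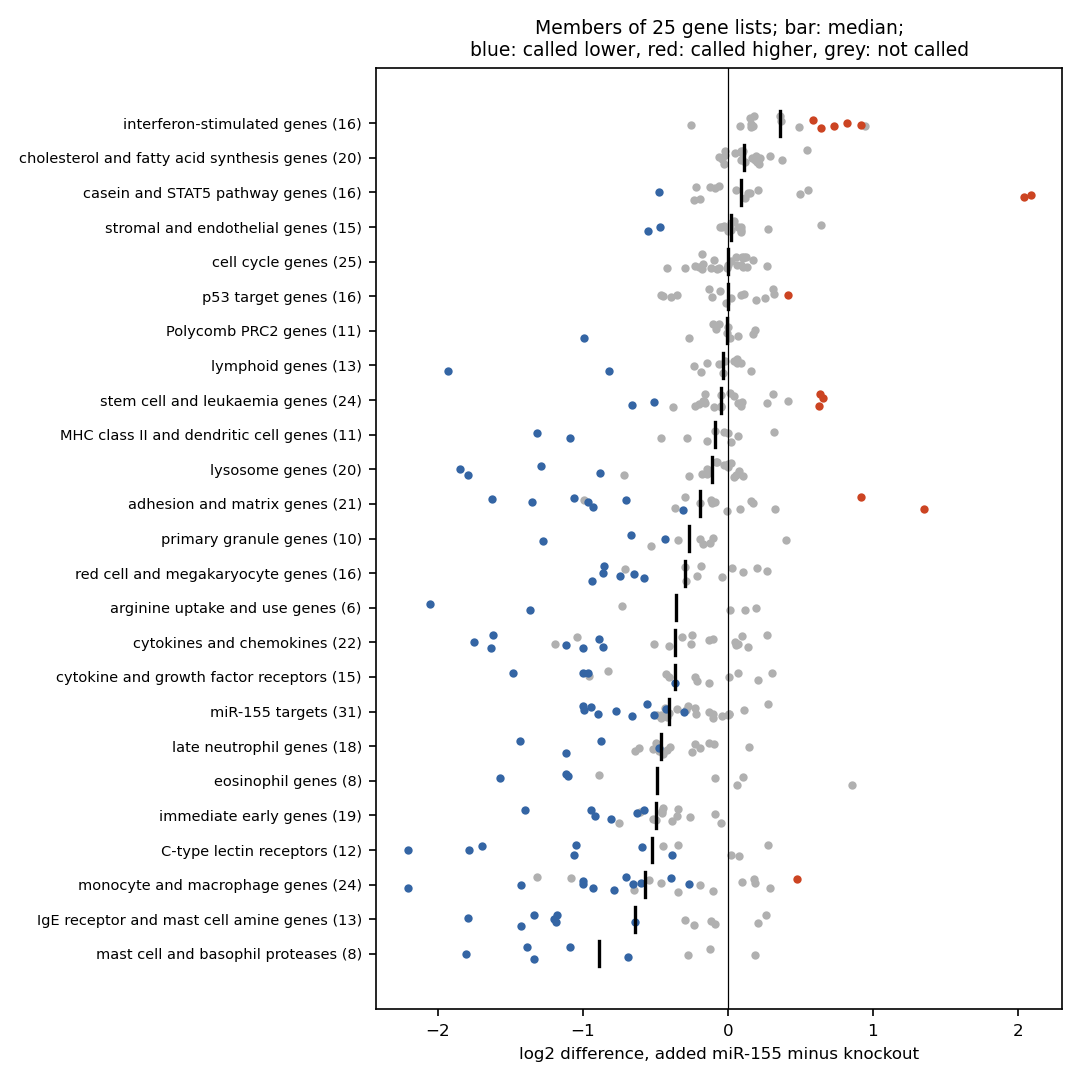
Log2 difference, added miR-155 minus knockout, of each measured member (points) of 25 gene lists, with the number measured in parentheses and the list's median as a black bar. Blue members were called lower, red ones higher and grey ones were not called. Medians run from -0.89 for mast cell and basophil proteases to 0.36 for interferon-stimulated genes, and 19 of 25 are negative.

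Secreted inflammatory factors fell in part, with 7 of 22 measured cytokines and chemokines lower, 0 higher and a median of -0.36. Il6, whose protein was also in the medium, read 6.93, 7.29 and 6.5 with miR-155 against 8.74, 8.47 and 8.42 in the knockout, a 3.11-fold fall (-1.64 ± 0.18, limma adjusted p = 0.000937). Il1f9, now called IL-36 gamma, read 7.23, 7.10 and 7.01 against 8.59, 9.16 and 8.83, a 3.37-fold fall. Il1b read 8.41, 8.48 and 8.52 against 9.21, 9.99 and 9.56 (-1.11 ± 0.19, limma adjusted p = 0.0105). In all 3 the miR-155 arrays were below every knockout array, as in every called fall. Il1a (-1.0), the chemokines Ccl24 (-1.62) and Cxcl2 (-0.89) and the IL-6 family cytokine Lif (-0.86) passed too. Ccl24 lost its call without miR-155 array 1 or 3 or knockout array 1 (limma adjusted p up to 0.0742) and Lif without those 3 or knockout array 3 (up to 0.0654). Il1a lost it without any 1 array but miR-155 array 3 (up to 0.128), and Cxcl2 without any 1 array but knockout array 1 (up to 0.123). Tnf (0.07), Csf1 (0.10), Il10 (0.05), Ccl3 (0.14) and Ccl4 (0.27) did not pass. Neither did Ccl7 (-1.19), Ccl2 (-1.04), Il1rn (-0.41) and Ccl9 (-0.25), which were lower with miR-155. These lower genes passed in the fit on 9 arrays (limma adjusted p = 0.00134 to 0.0352). Over the 22 measured genes, 16 values were negative and 6 positive.

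On the receiving side, 4 of 15 receptor genes fell and 0 rose. Il7r, the IL-7 receptor chain, read 7.05, 7.35 and 7.15 against 8.56, 8.91 and 8.51, a 2.79-fold fall, and Il6st, the gp130 chain that the IL-6 family shares, read 9.26, 9.28 and 8.91 against 9.91, 10.26 and 10.18, a 1.95-fold fall. Besides Csf1r, the shared beta chain Csf2rb passed at -0.36 ± 0.08, but lost its call without miR-155 array 1 or 3 or knockout array 2 or 3 (limma adjusted p up to 0.143) and under both rescalings named above. For the other cytokines supplied in the medium, the IL3 receptor alpha chain Il3ra (0.01) and the SCF receptor Kit (0.21) did not pass. Csf2rb is itself a chain of the IL3 receptor, and the receptor genes Csf2rb2 and Il6ra were not measured.

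Immediate early genes, which cells switch on within minutes of a stimulus, had 6 of 19 lower, 0 higher and a median of -0.50, and all 19 values were negative. Egr2, a transcription factor of macrophage programmes, read 7.89, 8.14 and 7.82 against 9.12, 9.54 and 9.39 (-1.40 ± 0.14, limma adjusted p = 0.000535). The stress factor Atf3 fell 1.54-fold. The phosphatase Dusp1 changed by -0.80 ± 0.14, a call lost without knockout array 2 (limma adjusted p = 0.0503). Besides Fos, Zfp36, which destabilises cytokine messages, changed by -0.91 and lost its call without any 1 array but miR-155 array 2 (up to 0.128), and Ier3 changed by -0.58 and lost it without any 1 array but knockout array 1 (up to 0.0872). Egr1 (-0.61), Jun (-0.45) and Myc (-0.05) did not pass, but Egr1 did in the fit on 9 arrays (0.0149).

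Megakaryocyte genes differed in how the 3 groups were ordered. Of 16 measured red cell and megakaryocyte genes, 6 fell and 0 rose, with a median of -0.29. The list's median was -0.07 against wild-type MIG, and 0.27 in the knockout against wild-type MIG, where 0 members passed. Gp5, a platelet glycoprotein, read 6.44, 6.66 and 6.55 with miR-155 against 7.61, 7.34 and 7.50 in the knockout, with wild-type MIG at 6.84. The platelet integrin chain Itga2b read 7.73, 7.90 and 7.83 against 8.53, 8.59 and 8.57, with wild-type MIG at 8.19. In Itga2b the wild-type MIG mean thus lay about midway, and in Gp5 nearer the miR-155 arrays. The erythroid and megakaryocyte factors Gata1 (-0.86 ± 0.10, limma adjusted p = 0.00143) and Gfi1b (-0.85 ± 0.12, 0.00429) fell, as did the clotting protein Vwf (-0.58 ± 0.07, 0.00175). Gp9 changed by -0.65 and lost its call without any 1 array (up to 0.112). The red cell genes Klf1 (-0.29), Epor (-0.21) and Alas2 (0.20) and the platelet chemokine Pf4 (-0.30) did not pass.

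The rises were led by milk protein genes. Csn2, beta-casein, read 12.95, 13.04 and 12.97 with miR-155 against 10.82, 10.90 and 10.96 in the knockout, a 4.26-fold rise (2.09 ± 0.20, limma adjusted p = 0.000517). Wild-type MIG read 11.79, 12.06 and 12.18, so the 3 groups did not overlap and stood in the order knockout, wild-type MIG, miR-155. The difference of the knockout from wild-type MIG, -1.11 ± 0.20, did not pass (limma adjusted p = 0.269). Csn1s2a, an alpha-casein, read 5.63, 5.77 and 5.98 against 3.95, 3.73 and 3.57, a 4.13-fold rise (2.05 ± 0.12, limma adjusted p = 3.39e-05), with wild-type MIG at 4.32 ± 0.14. The miR-155 readings of Csn2 are close to the arrays' highest values. Caseins are made in the mammary gland under prolactin through the factor STAT5, which IL3 also activates in blood cells. Whether STAT5 has a part in the casein rise was not tested. Of 16 measured casein and STAT5 pathway genes 2 rose and 1 fell, and the median was 0.09. The fall was that of the kinase Jak2 (-0.48 ± 0.08, limma adjusted p = 0.0072), and the STAT5 targets Cish (0.06) and Pim1 (-0.23) and the factors Stat5a (-0.12) and Stat5b (0.21) did not pass. Socs2, a STAT5 target too, read 11.56, 11.50 and 11.76 with miR-155 against 11.03, 11.09 and 11.03, with the groups apart. Its 0.55 ± 0.26 did not pass over 12 arrays (limma adjusted p = 0.336) and passed in the fit on 9 (0.00238). Csn1s1 (0.50), at levels near 3, likewise passed only in fits without the other 3 arrays (0.00386 on 9), and Csn3 (-0.06) did not pass.

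The windows around the starts of both rising casein genes are shown with the STAT5 motif TTCNNNGAA in capitals, a palindrome that reads alike on both strands.
Csn2 (chr5:87699376-87699675, minus strand): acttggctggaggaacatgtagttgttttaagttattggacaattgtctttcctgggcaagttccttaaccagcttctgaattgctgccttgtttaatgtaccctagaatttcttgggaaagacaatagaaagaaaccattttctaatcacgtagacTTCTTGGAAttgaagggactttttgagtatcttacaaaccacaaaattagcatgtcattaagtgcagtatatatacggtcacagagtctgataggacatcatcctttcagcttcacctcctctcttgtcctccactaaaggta
Csn1s2a (chr5:87774200-87774499, plus strand): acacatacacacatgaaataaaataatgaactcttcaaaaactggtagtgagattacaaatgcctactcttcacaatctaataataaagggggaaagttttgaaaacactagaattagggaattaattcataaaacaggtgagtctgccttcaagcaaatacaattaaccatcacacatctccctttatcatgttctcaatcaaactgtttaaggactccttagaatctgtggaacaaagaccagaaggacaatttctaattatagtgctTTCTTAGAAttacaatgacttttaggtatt
The match begins 93 bases before the start in Csn2 and 21 bases into the transcript in Csn1s2a. Among genes with a window, the motif was held by 8.65% of 11894 tested genes, by 9.6% of 125 that rose and by 6.74% of 371 that fell. All 3 casein genes with a window held it, Csn1s1 included, which did not pass over 12 arrays.

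Other large rises spread over several roles. Vat1l read 8.05, 8.06 and 8.03 against 6.29, 6.57 and 6.23, a 3.20-fold rise. Pcdh7, a protocadherin of cell adhesion, read 8.29, 8.11 and 8.21 against 6.78, 6.87 and 6.88 (1.36 ± 0.07, limma adjusted p = 3.02e-05), and wild-type MIG averaged 7.41 ± 0.04, above the knockout by 0.56 ± 0.07 (limma adjusted p = 0.0366). Galnt3, which starts O-linked sugar chains, read 9.05, 9.09 and 9.11 against 8.06, 8.04 and 8.02 (1.05 ± 0.06, limma adjusted p = 3.02e-05). Pcdh7 and Galnt3 thus had the smallest p-values of the comparison, with arrays tight in both groups. Aldh1a3, which makes retinoic acid, rose 2.87-fold, Smpdl3b, a membrane lipid enzyme that dampens Toll-like receptor signals, 3.16-fold, the acid-sensing receptor Gpr65 2.36-fold and the clathrin light chain Cltb 2.11-fold. Polr2h, an RNA polymerase subunit, rose 2.26-fold by its brighter probe set and differed by 0.53 ± 1.31 on a dimmer one, which did not pass. For Aldh1a3, Gpr65 and Polr2h wild-type MIG lay closer to miR-155 than to the knockout, at 8.15, 8.37 and 6.19.

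Several of the 25 largest rises were less firm. Btla, an inhibitory lymphocyte receptor (1.03), and the cilium protein Tulp3 (1.06) lost their calls without any 1 array but knockout array 1 (limma adjusted p up to 0.0814). Gpx8, a peroxidase of the endoplasmic reticulum (1.04), lost it without any 1 array but miR-155 array 1 (up to 0.125). Cypt4 (1.19) lost it without miR-155 array 2 or 3 or knockout array 1 or 2 (up to 0.0892), and Abhd6, a lipase (0.96), without any 1 array (up to 0.117). Firmer were the TGF-beta co-receptor Eng (9.46, 9.62 and 9.38 against 8.55, 8.63 and 8.53), the deubiquitinase Usp44 (8.43, 8.35 and 8.50 against 7.44, 7.61 and 7.48) and Bcat1, which handles branched-chain amino acids (8.93, 8.99 and 8.94 against 7.95, 8.13 and 8.04). Each rose by 0.91 to 0.92 on the log2 scale, and none of the 3 lost its call in runs without 1 array.

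**Figure D4:**
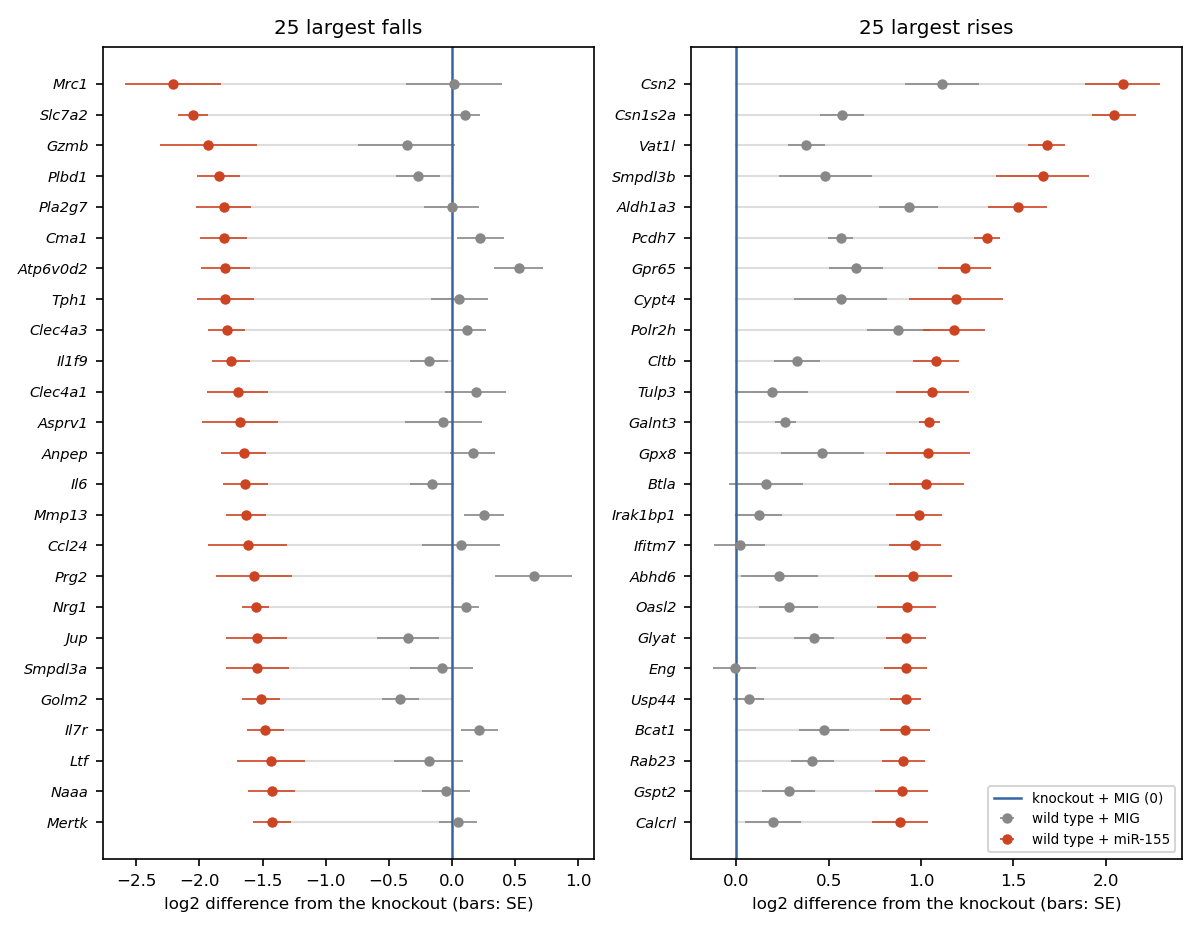
The 25 largest falls (left) and rises (right) among called genes, as log2 difference from the knockout with MIG (vertical blue line at 0). Red points are wild-type cells with miR-155, grey points wild-type cells with MIG, and bars are limma's standard errors. Wild-type MIG lies on the knockout for Mrc1, where knockout minus wild-type MIG was -0.02, and partway for Csn2, where it was -1.11.

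Interferon-stimulated genes were the list with the highest median, 0.36, with 5 of 16 measured members higher and 0 lower than in the knockout. Against wild-type MIG the median was 0.22, and only 1 member passed, Ifi27l2a (limma adjusted p = 0.0115). The knockout differed from wild-type MIG by a median of -0.14, and 0 members passed there. Oasl2, an antiviral synthetase-like protein, read 7.49, 7.14 and 7.02 with miR-155 against 6.13, 6.61 and 6.14 in the knockout (0.92 ± 0.16, limma adjusted p = 0.0105). The chemokine Cxcl10 read 6.85, 7.04 and 6.98 against 6.11, 6.15 and 6.15 (0.82 ± 0.17). Ifit2 (0.73), Ifi27l2a (0.65) and viperin, Rsad2 (0.59), also passed. In all 5 the groups were apart, as in every called gene and in 24.8% of all genes. Only Oasl2 kept its call in every run without 1 array, with a highest adjusted p of 0.0476. Cxcl10 lost it without any 1 array (up to 0.0878), Ifit2 and Rsad2 without any 1 array but knockout array 2 (up to 0.134), and Ifi27l2a without miR-155 array 1 or 2 or knockout array 1 or 3 (up to 0.0766). Mx1 (0.49), Ifit1 (0.95), Irf7 (0.16) and Stat2 (0.18) did not pass. Ifitm7, a relative of the antiviral Ifitm genes outside the list, rose by 0.97 ± 0.14. A motif bound by interferon factors, GAAA, any 2 bases and GAAA on either strand, was held by 3.79% of tested genes with a window. Of such genes that rose 9 of 125 (7.2%) held it, and of those that fell 11 of 371 (2.96%). Of the 4 called interferon-stimulated genes with a window, Cxcl10 and Rsad2 held it, and Oasl2 and Ifit2 did not.

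Stem cell and leukaemia genes moved little as a list, with 3 of 24 higher, 2 lower and a median of -0.05. Hlf, a factor of stem cell self-renewal, read 7.96, 7.97 and 7.78 against 7.29, 7.24 and 7.21 (0.66 ± 0.10, limma adjusted p = 0.00459). Hoxa7, a neighbour of Hoxa9 in its cluster, read 6.91, 6.89 and 6.79 against 6.16, 6.28 and 6.27, and Eya1, a phosphatase and cofactor, rose by 0.64 ± 0.10. Meis1, the partner of Hoxa9 in leukaemia, read 7.49, 7.68 and 7.39 against 8.10, 8.03 and 7.95, with wild-type MIG at 7.58 on a par with miR-155. Its change of -0.51 ± 0.10 (limma adjusted p = 0.0258) lost the call without any 1 array but miR-155 array 2 (up to 0.103). Id2, an inhibitor of differentiation factors, changed by -0.66 ± 0.12 and lost its call without miR-155 array 1 (0.0679). Hoxa10 (0.09), Pbx3 (0.41), Flt3 (0.07), Myb (-0.23) and Cd34 (-0.17) did not pass, but Pbx3 and Myb did in the fit on 9 arrays (0.00549 and 0.0278).

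Genes of growth and metabolism gave few calls. Of 25 cell cycle genes 0 passed in limma (2 at an unadjusted p under 0.05), with a median of 0.01 and values from -0.42 for the replication helicase subunit Mcm2 to 0.27 for the mitotic kinase Aurka. Mcm2 passed in the fit on 9 arrays (limma adjusted p = 0.00444), and Aurka, at 0.32, after the other quantile normalization (0.0288). The proliferation marker Mki67 differed by 0.13. Of 20 genes of cholesterol and fatty acid synthesis 0 passed (2 at an unadjusted p under 0.05, and the desaturase Scd1 at an adjusted p of 0.0197 in the fit on 9 arrays), with a median of 0.11, and 15 of the 20 values were positive. Of 16 p53 targets only the death receptor Fas passed, at 0.42, and its call was lost without any 1 array but knockout array 2 (limma adjusted p up to 0.168). The main p53 readouts Cdkn1a (-0.05) and Mdm2 (-0.11) did not pass.

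Markers of other cell types were read beside these results. Of 13 lymphoid genes 2 fell, namely Gzmb and Cd79b, and 6 of 13 had means under 5 in both groups. Gzmb, granzyme B, which mast cells and activated lymphocytes make, read 8.72, 9.08 and 8.76 against 10.77, 10.78 and 10.80, a 3.81-fold fall (-1.93 ± 0.38, limma adjusted p = 0.0209) whose call was lost without any 1 array but miR-155 array 2 (up to 0.0805). It makes up most of the list's summed linear level of 825 to 926 with miR-155 and 2220 to 2290 in the knockout. The B cell gene Cd79b, at -0.82, lost its call without any 1 array (up to 0.128), while the T and B cell genes Cd3e (-0.14), Pax5 (-0.02) and Ms4a1 (0.06) did not pass. Of 15 stromal and endothelial genes 2 fell, Lepr (-0.55) and Kdr (-0.47), both at levels near 5 and both losing their calls without any 1 array but knockout array 3 (up to 0.118). The stromal list's summed level was 3060 to 3290 with miR-155 and 3000 to 3070 in the knockout. The summed level of mast cell and basophil proteases was 4780 to 5540 against 11300 to 12000, and that of macrophage genes 24200 to 25200 against 34000 to 40500. Cpa3 and Mcpt8 make up most of the sum of the protease list.

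Genes near the deleted locus were examined because a knockout can carry flanking sequence of another strain. Of 30 measured genes within 5 Mb of Mir155 on chromosome 16, only Bach1, itself a listed target, was called. The other 29 ranged from -0.62 to 0.59, and 16 of the 30 had means under 5 in both groups. Across the autosomes and X the share of genes that fell was 2.13% to 4.98%, highest on chromosome 6, and the share that rose 0.491% to 1.78%.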

How the data were processed

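RNA was measured on 12 Affymetrix arrays in 5 labelled groups. The deposited values are log2 expression levels, 1 per probe set and array, for which the submitters' processing notes name RMA and the Affymetrix Expression Console as the authors' tools. RMA corrects background, normalizes probes by quantiles and summarises probe sets, so levels are relative and a shift of most genes would be removed. Of 23332 probe sets, the platform annotation names 14996 by 1 symbol and 1019 by several, and 7317 have no symbol. The 16015 with a symbol were tested. Genes are named from probe sets with 1 symbol, the one of highest mean standing for a gene.

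Group means were fitted over all 12 arrays with limma 3.58.1 in R 4.3.3 (7 residual and 3.06 prior degrees of freedom), with Benjamini-Hochberg adjustment over 16015 probe sets and calls at an adjusted p under 0.05. Errors of changes are limma's standard errors. Folds are 2 to the power of the log2 difference. The fit was tested on simulated data. Named were the 25 largest rises and falls among called, non-overlapping genes without predicted genes and olfactory receptors, members of 25 lists, genes within 5 Mb of Mir155 and sex-linked genes. Members and lists were chosen with earlier results of these data known. The alternatives were fits on 6 or 9 arrays, 3 rescalings, 3 sets of probe sets, another eBayes setting, a replicate block, and leaving out each array. Arrays 1 to 3 of a group are those titled I to III.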

Additional observations from a re-analysis of the deposited data

How the results depend on the processing

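No call changed direction in any of 16 alternatives. Against 651 calls (174 higher, 477 lower), the fit on the 9 arrays of the wild-type MIG, miR-155 and knockout groups called 1195 (359 higher, 836 lower), and with the replicate number as a block it called 1309 (383 higher, 926 lower), of which 639 were shared. Whether the numbers pair the samples was not settled. Deviations of same-numbered arrays correlated at 0.0132 to 0.14 over 9 pairs, all positive, and those of 18 other pairs at -0.107 to 0.0312. These correlations were small, and not every array correlated best with its own number. The other quantile normalization called 277 higher, and testing all 23332 probe sets called 103 higher. Runs without 1 array called 325 to 457, of which 70 to 106 were higher and 238 to 381 lower. Of 131 called genes named or listed, 84 kept their call in all 6 such runs and 47 lost it at least once. Testing all probe sets cost 31 of the 131 calls, the fit on 6 arrays 10, the other quantile normalization 8 and a common array median 5. In turn, of 286 listed genes without a call, 48 gained one in the fit on 9 arrays, 61 with the replicate block and 36 in the fit on 6 arrays, so that not passing depends on which arrays set the spread. The median of the casein and STAT5 pathway list, 0.09, became -0.016 when probe sets with a mean level under 5 were left out, which removes Csn1s2a and 3 other casein genes from it. The fall in calls without 1 array goes with fewer samples. No background measure was used, so differences at levels under 5 are inexact.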
